A study of Mus musculus with 12 samples.

Results

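Keratin genes were taken from the RNA-seq tables of tongue tissue as every row whose symbol was Krt followed by a number and at most a single letter. There were 54 such genes among 32498 named rows, and keratin-associated proteins (Krtap genes) were not members. The tissue came from C57BL/6 mice bought at 5 weeks of age. All mice in both groups had received the carcinogen 4-nitroquinoline 1-oxide (4NQO) in drinking water at 100 µg/mL for 16 weeks, so neither group was free of carcinogen. From week 4 of 4NQO exposure the GA group was gavaged with gallic acid, a plant phenolic acid, at 100 mg/kg 5 times per week, and the Vehicle group received the carrier alone on the same schedule. Each group held 6 libraries, and the labels describe the material as tumor with its surrounding cells. The labels number the replicates but do not say that each was a separate animal, so p-values measure the spread between these libraries.

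Keratins are the intermediate filament proteins of epithelia. An acidic type I keratin pairs with a basic type II keratin, and the pair that a cell makes depends on its epithelium and layer. Krt5 and Krt14 mark the basal layer of stratified epithelium, Krt4 and Krt13 the suprabasal layers of wet mucosa, Krt1 and Krt10 cornified skin, and Krt8 and Krt18 simple epithelium such as gland ducts and acini. Krt6a, Krt6b, Krt16 and Krt17 are stress keratins, which are made in wounded and hyperproliferative epithelium and also in parts of tongue papillae. The filiform papillae of the mouse tongue cornify with hard keratins that are otherwise found in hair and nail, and Krt36 and Krt84 are typical of them. In the annotation (GENCODE M21, build GRCm38, which is mm10), 27 members lay on chromosome 11 between 99232761 and 100269871 and 26 on chromosome 15 between 101347444 and 102032027. Krt18 was the type I gene on chromosome 15, and Krt85 had no entry under that symbol.

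The bases just before the transcription start are shown for the keratins whose levels moved together across libraries and, beside them, for the leading mucosal and basal keratins. RefSeq (GRCm38.p6) held a promoter for 36 of the 54 members. The 80 bases before the start are printed 5′ to 3′ on the gene's strand, and capitals mark the letters ATAAA.
Krt36, filiform papilla, chr11:100105627-100105706, minus strand: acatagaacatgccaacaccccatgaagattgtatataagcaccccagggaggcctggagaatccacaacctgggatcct
Krt84, filiform papilla, chr15:101532821-101532900, minus strand: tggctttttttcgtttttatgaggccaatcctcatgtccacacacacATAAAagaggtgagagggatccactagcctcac
Krt31, hair cortex, chr11:100050552-100050631, minus strand: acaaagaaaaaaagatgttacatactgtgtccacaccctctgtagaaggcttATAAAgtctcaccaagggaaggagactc
Krt32, hair cuticle, chr11:100088270-100088349, minus strand: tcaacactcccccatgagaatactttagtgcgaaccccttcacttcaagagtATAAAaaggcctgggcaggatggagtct
Krt33b, hair cortex, chr11:100029869-100029948, minus strand: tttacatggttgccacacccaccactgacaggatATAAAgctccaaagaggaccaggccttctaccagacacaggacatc
Krt34, hair cortex, chr11:100041555-100041634, minus strand: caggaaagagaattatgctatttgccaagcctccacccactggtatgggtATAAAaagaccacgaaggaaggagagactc
Krt39, hair cuticle, chr11:99521339-99521418, minus strand: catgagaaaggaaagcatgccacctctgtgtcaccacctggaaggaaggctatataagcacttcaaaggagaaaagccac
Krt13, suprabasal mucosa, chr11:100121567-100121646, minus strand: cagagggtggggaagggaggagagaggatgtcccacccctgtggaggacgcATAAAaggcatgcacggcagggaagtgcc
Krt5, basal layer, chr15:101712906-101712985, minus strand: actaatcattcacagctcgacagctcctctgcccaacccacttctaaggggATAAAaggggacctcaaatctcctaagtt
Krt14, basal layer, chr11:100206031-100206110, minus strand: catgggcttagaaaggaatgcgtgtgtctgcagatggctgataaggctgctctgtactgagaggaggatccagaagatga
The letters ATAAA stood on the gene's strand within the last 50 bases before the start in 23 of 36 matched keratins, against 6.57% of all 32851 promoters in the table. The longer word TATAAA, which contains ATAAA, stood on either strand of the 300-base promoter in 19 of 36, against 13.6% of all promoters. In Krt31, Krt32 and Krt76 the last ATAAA began 28 bases before the start (position -28), and in Krt13 and Krt5 it began at position -29. In Krt84 it began at position -33 and in Krt33b at position -46. Krt36, Krt39 and Krt14 had no ATAAA in the printed bases. Those of Krt36 and Krt39 hold the letters TATATAAG, which the word ATAAA does not match. For Krt14 the RefSeq start lies inside the longer GENCODE gene, and the printed bases are all within that gene and outside its annotated exons. These matches describe letters in a window and not binding.

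Library totals, recovered from the FPKM values, ranged from 18039688 to 25192614 reads. Levels are given below as scaled FPKM, that is, reads divided by transcript length and library total and then by a scaling factor between libraries, so they can be compared between genes. Markers of the labelled tissue were present, and the summed level of 11 non-keratin genes of oral epithelium was between 3908 and 8473 FPKM in every library. Gland genes were not evenly present. Lipf, a lipase of lingual serous glands, reached 21952, 8079 and 26220 FPKM in Vehicle 3, Vehicle 5 and GA 2, and at most 0.498 FPKM in the other 9 libraries. Reads of Y-linked genes were present in 4 of 6 Vehicle and 1 of 6 GA libraries. In bulk tissue fewer cells of a type and less RNA per cell cannot be told apart.

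Keratins took between 6.00% and 15.9% of the FPKM of all named rows. Their share was 10.9% ± 3.33 (SD, n = 6) in the Vehicle group and 8.87% ± 2.48 (n = 6) in the GA group. Of the 54 genes, 43 had a mean of at least 0.1 FPKM and were compared between groups. The 11 others were Krt2, Krt25, Krt26, Krt27, Krt28, Krt40, Krt71, Krt72, Krt77, Krt82 and Krt88, none of which passed 0.299 FPKM in a library, and Krt26 was listed at 0 in all 12. Krt25, Krt27, Krt28, Krt71 and Krt72 belong to the inner root sheath of hair, and Krt2 and Krt77 to skin epidermis. By contrast, 8 keratins had a mean above 1000 FPKM, and 9 had a median rank within the top 100 named genes.

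Stress and mucosal keratins made up most of the keratin FPKM. The stress keratins took 15.6% to 52.1% of it, the mucosal keratins 22.7% to 66.5% and the basal keratins 8.27% to 24.6%. Papilla and hair-type keratins took 0.174% to 7.42%, and simple-epithelial keratins took at most 0.40%. The stress share was above the mucosal share in 5 of 12 libraries. Stress and mucosal shares stood opposite each other at the extremes. GA 6 had the highest stress share (52.1%) and the lowest mucosal share (22.7%). GA 1 and GA 5 had the lowest stress shares (16.3% and 15.6%) and the highest mucosal shares (66.5% in each). Both are large parts of the same total, so a high share of either leaves less for the other. The levels were not opposed in this way. Vehicle 1 had the highest FPKM of Krt16, Krt6b and Krt6a and also of Krt13, whereas Krt17 was highest in GA 6 and Krt4 in Vehicle 6. The ratio of summed type I to summed type II FPKM stayed between 1.32 and 1.79 over the 12 libraries.

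**Figure D1:**
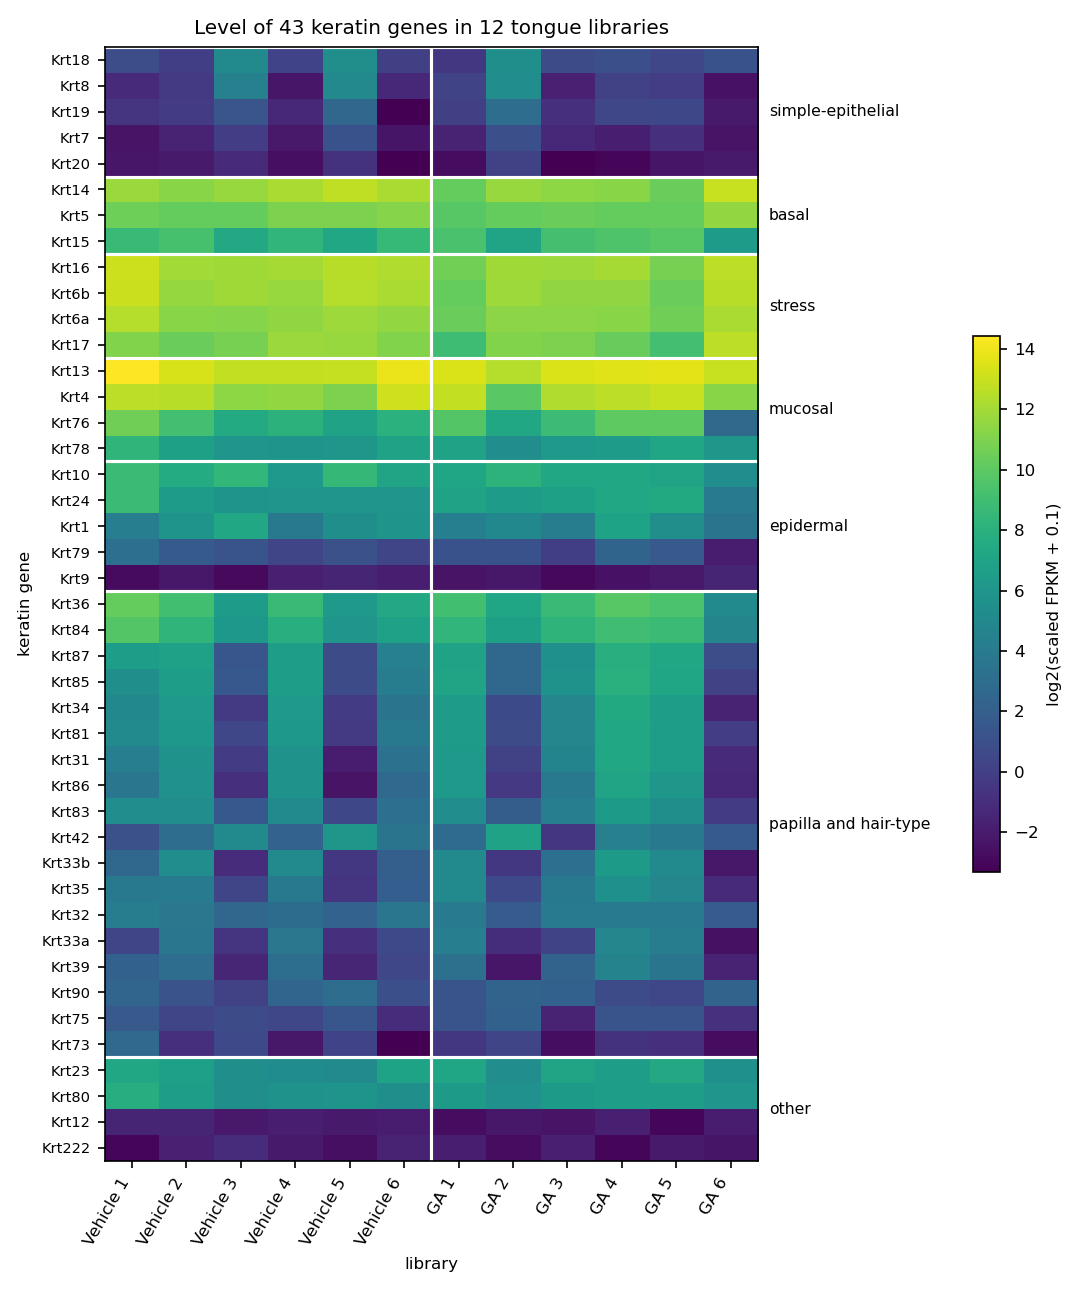
Level of the 43 tested keratin genes (rows, grouped by epithelial type) in 12 libraries (columns, Vehicle left and GA right of the white line), coloured by log2(scaled FPKM + 0.1). The stress rows and the mucosal rows of Krt13 and Krt4 are bright throughout, whereas Krt76 falls to 6.89 FPKM in GA 6. Most papilla and hair-type rows are darker in Vehicle 3, Vehicle 5, GA 2 and GA 6.

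No keratin was called different between GA and Vehicle. The test was limma on log2(scaled FPKM + 0.1), and a call needed an adjusted p (Benjamini-Hochberg) under 0.1 and a log2 fold change of 0.58 or more in either direction. Of 43 keratins 0 were called, and the background over all 16847 tested genes was also 0%. At an unadjusted p below 0.05 there were 0 keratins, against 2.16% of all tested genes. At an unadjusted p below 0.1 with the fold change limit there was 1 keratin, Krt6b, against 1.95% of all tested genes. The mean log2 level was higher with GA for 20 keratins and lower for 23, near the 51.0% and 49.0% of all tested genes, and the median log2 fold change of the keratins was -0.05. Without the 3 libraries with gland RNA, 10 keratins were higher and 32 lower, against 51.2% of all tested genes lower. Without GA 4 alone, 12 were higher and 31 lower, against 50.2% of all tested genes lower. In 0 of 54 keratins were the groups free of overlap, against 0.0653% of all tested genes. The smallest unadjusted limma p among the keratins was that of Krt12, a keratin of the cornea, at 0.0708 (log2 fold change -0.53, exact permutation p 0.039), but it rested on 1 to 9 reads per library, and genes on the opposite strand overlap 54.4% of it.

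**Figure D2:**
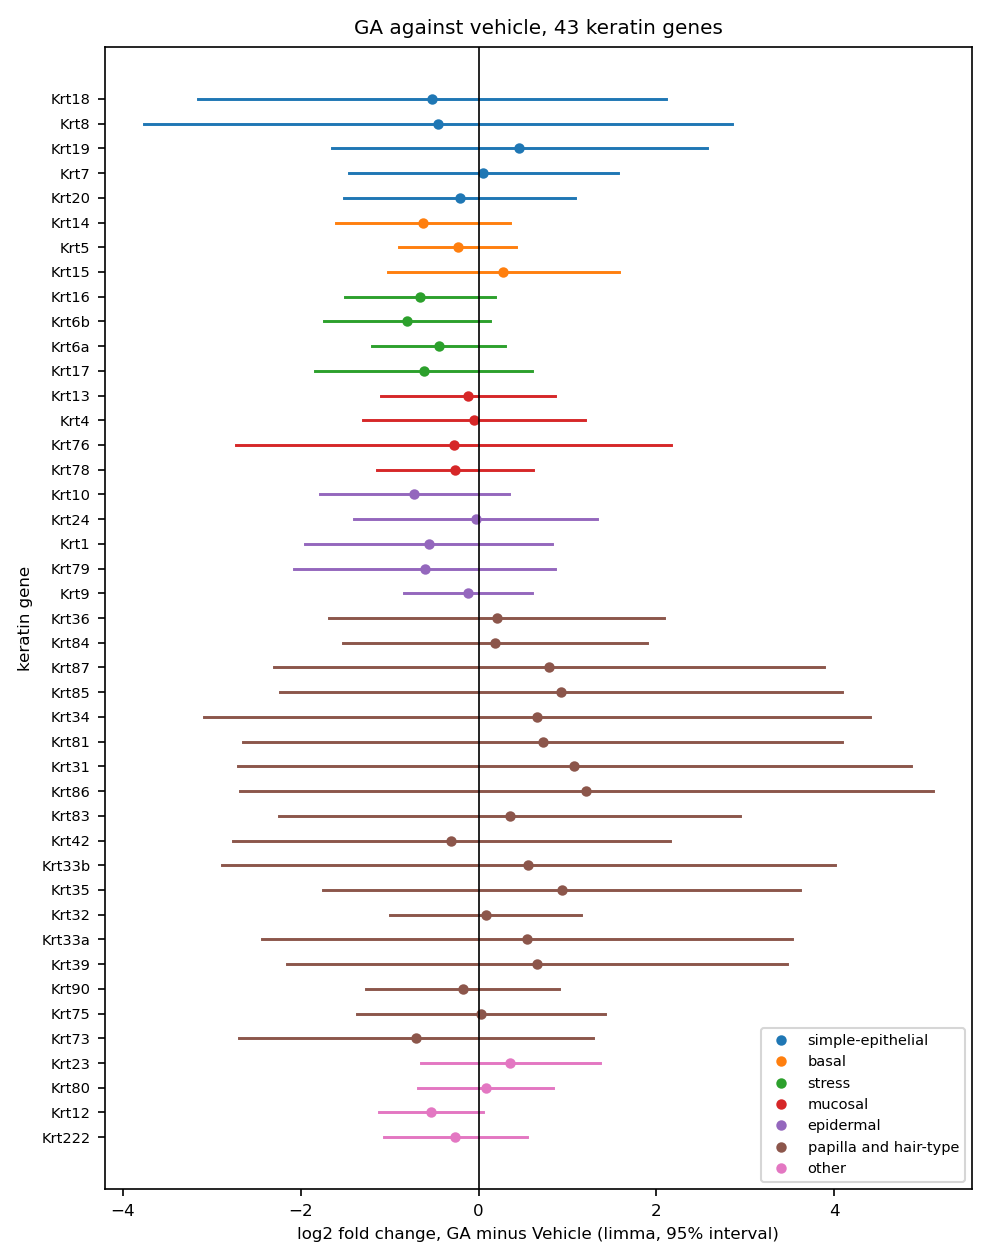
Log2 fold change of GA minus Vehicle (x axis) with its 95% limma interval for each of 43 keratins (y axis), coloured by epithelial type. Every interval crosses 0, and the widest belong to hair-type keratins such as Krt86 (-2.68 to 5.11).

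The stress keratins had lower mean levels with GA in all 4 members, without passing the test. Their median log2 fold change was -0.64, beside 0.004 for all tested genes. Krt6b, a type II keratin of wounded and papillary epithelium, had a lowest, median and highest level of 3145, 4207 and 8274 FPKM with Vehicle and 1230, 2908 and 5905 FPKM with GA. GA 2 and GA 6 lay within the Vehicle range, and the other 4 GA libraries lay below its lower end. The log2 fold change was -0.81 (SE 0.43, 95% interval -1.74 to 0.12), with an unadjusted limma p of 0.0832, an adjusted p of 1.00 and an exact two-sided permutation p of 0.0909 over all 924 assignments of 6 libraries to a group, where the smallest possible value is 0.00216. Krt16, the type I partner of Krt6a, had 3810, 4649 and 8704 FPKM with Vehicle and 1635, 3792 and 6384 FPKM with GA. Its log2 fold change was -0.66 (SE 0.39, -1.50 to 0.19). Krt6a had 2342, 2954 and 5574 FPKM with Vehicle and 1301, 2527 and 4715 FPKM with GA, for a log2 fold change of -0.45 (SE 0.35, -1.20 to 0.30). Krt17, which is also found in basal-like and migrating keratinocytes, had 1336, 2129 and 3412 FPKM with Vehicle and 486, 1597 and 6635 FPKM with GA. It had both its lowest and its highest level in the GA group, and its log2 fold change was -0.62 (SE 0.56, -1.84 to 0.60). In each of the 4 genes GA 6 lay above the Vehicle median and the other 5 GA libraries lay below it.

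Within the GA group, GA 1 and GA 5 had the lowest levels of the 12 in all 4 stress keratins, for example 1230 and 1302 FPKM of Krt6b and 486 and 572 FPKM of Krt17. The same pair was lowest in 6 of the 43 keratins, the others being Krt14 and Krt12, and in 3.77% of all tested genes. These libraries were singled out after the values were seen. GA 6 stood at the other end, with 6635 FPKM of Krt17 against at most 2120 FPKM in the other GA libraries. Without GA 6 the log2 fold changes of all 4 had an unadjusted p below 0.1 with the fold change limit, against 5.16% of all tested genes in the same fit. In that fit 3 of the 4 were below 0.05, against 4.99% of all tested genes, and none was called. GA 6 too was singled out after the values were seen. It was the highest GA library in all 4 genes, so leaving it out had to lower the GA mean. These counts are given as a description. Without GA 1 the median log2 fold change of the stress keratins was -0.38, and without GA 5 it was -0.42. When a sex term (Y-linked reads present or not) was added to the fit, the median was -1.02 with 0 called. The summed level of 12 skeletal muscle genes was 8725 FPKM in GA 1 and 8247 FPKM in GA 5. Only Vehicle 3 and GA 2 had more (12904 and 9874 FPKM), and Vehicle 1 and GA 6 had least (1507 and 2279 FPKM). With a muscle term in the fit the median log2 fold change of the stress keratins was -0.59 with 0 called. The sum of neutrophil markers, like the stress keratins, was lowest in GA 1 and GA 5, though not each marker. The summed level of 12 neutrophil genes was 702 FPKM in GA 1 and 221 FPKM in GA 5, against 1387 to 1848 FPKM in the other GA libraries and 1102 to 2612 FPKM with Vehicle, and all 11 tested neutrophil genes had lower means with GA (median log2 fold change -0.87). Most of that sum was S100a8 and S100a9, which keratinocytes also make, Ly6g was near 0 (at most 0.194 FPKM), and the part of these cells in the keratin values was not tested.

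Read assignment limits the precision of this family. The authors counted uniquely mapped reads, and 50.1% of the 50-base windows of Krt6b and 45.7% of those of Krt6a also occur in another gene, mostly each other and the gene models Gm5478 and Gm5414. For Krt16 the share was 37.6%, with the gene model Gm11597 first, and for Krt17 it was 4.00%. On the opposite strand, other genes overlap 24.8% of the exon bases of Krt6a, and whether counting used strand is not given in the sources used here. The split between Krt6a and Krt6b is therefore uncertain. The ratio of Krt6b to Krt6a ranged from 0.829 to 1.60.

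**Figure D3:**
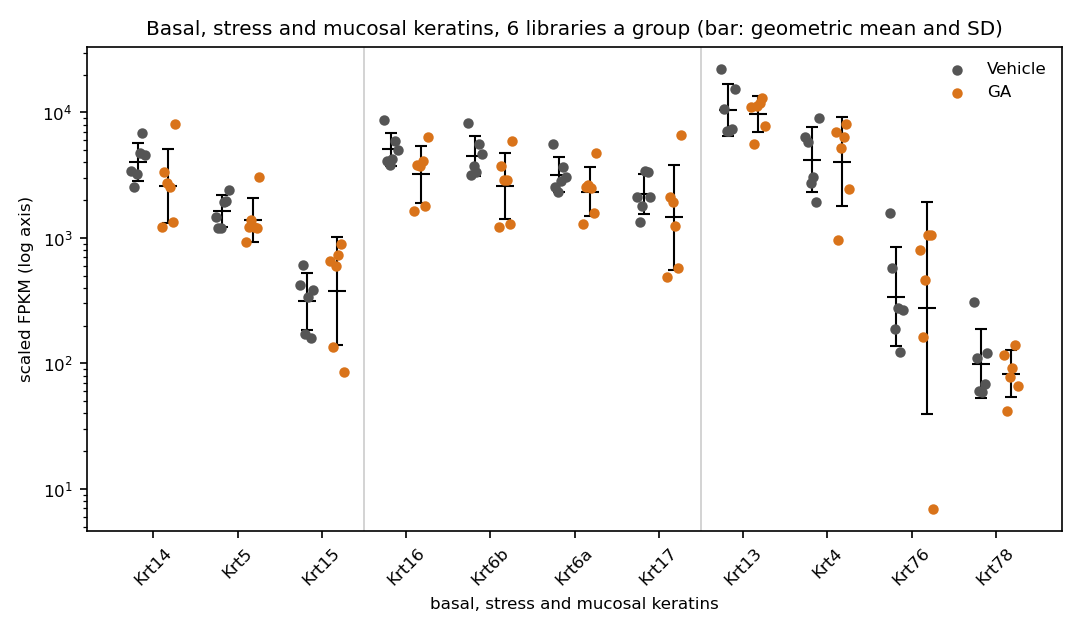
Scaled FPKM on a log axis for the 3 basal, 4 stress and 4 mucosal keratins, with a point for each of 6 Vehicle (grey) and 6 GA (orange) libraries and black bars for the geometric mean and SD. The groups overlap for every gene, and for the stress keratins a pair of GA points, GA 1 and GA 5, lies below all Vehicle points.

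Basal keratins did not differ beyond the spread. Krt14, the type I keratin of the basal layer, had a lowest, median and highest level of 2526, 3980 and 6827 FPKM with Vehicle and 1220, 2646 and 8021 FPKM with GA. The GA libraries spanned a wider range than the Vehicle libraries on both sides. Its log2 fold change was -0.63 (SE 0.45, 95% interval -1.61 to 0.36), and with the sex term it was -1.10 with an unadjusted p of 0.0414 and no call. Krt5, its type II partner, had 1189, 1701 and 2416 FPKM with Vehicle and 923, 1224 and 3070 FPKM with GA, for a log2 fold change of -0.24 (SE 0.30). It had a narrow spread for a keratin, a 3.33-fold range over 12 libraries. Krt15, a basal keratin of quieter and progenitor-rich epithelium, had 160, 362 and 611 FPKM with Vehicle and 85.3, 622 and 902 FPKM with GA, for a log2 fold change of 0.28 (SE 0.60). The value of Krt15 was between 0.028 (without GA 5) and 0.71 (without GA 6) when 1 library was left out. Krt15 did not follow Krt14 and Krt5. The ratio of Krt15 to Krt14 was 0.0106 in GA 6, where Krt14 was highest, and 0.677 in GA 5. Part of the Krt14 sequence (13.9% of windows) is shared with Krt16 and Krt17.

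Among the mucosal keratins, Krt13 and Krt4 had the highest mean levels of all keratins. Krt13, the type I keratin of suprabasal wet mucosa, was the highest keratin in 11 of 12 libraries, with a rank between 1 and 12 among all named genes and a median rank of 2. Its lowest, median and highest level was 7051, 9065 and 22196 FPKM with Vehicle and 5579, 11180 and 13110 FPKM with GA. Krt4, its type II partner, had 1938, 4420 and 9113 FPKM with Vehicle and 963, 5806 and 8051 FPKM with GA. The groups overlapped over most of their range, and the log2 fold changes were -0.12 (SE 0.45, -1.10 to 0.86) for Krt13 and -0.05 (SE 0.58, -1.30 to 1.20) for Krt4. No 50-base window of Krt13 or Krt4 occurs in another gene. Krt78, a type II keratin of upper stratified layers, had 58.6, 89.4 and 307 FPKM with Vehicle and 41.9, 84.6 and 140 FPKM with GA, with a log2 fold change of -0.27 (SE 0.41). Krt76, a type II keratin of hard palate and tongue epithelium that is known to be lost in oral carcinoma, had 122, 272 and 1567 FPKM with Vehicle and 6.89, 634 and 1061 FPKM with GA. Its 228-fold range was by far the widest of the mucosal keratins, and 412 reads supported the lowest value, in GA 6. The log2 fold change was -0.28 (SE 1.13, -2.72 to 2.16), and it was 0.49 with the sex term.

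Epidermal keratins were present at lower levels, and all 5 tested had a lower GA mean (median log2 fold change -0.56), with none below an unadjusted p of 0.1. Krt10, the type I keratin of cornifying suprabasal cells, had 76.7, 270 and 443 FPKM with Vehicle and 42.6, 149 and 284 FPKM with GA. Its log2 fold change was -0.72 (SE 0.49, -1.79 to 0.34), and 5 of the 6 GA libraries lay below the Vehicle median. Without GA 6 it was -0.40. Krt1, its type II partner, had 14.1, 51.5 and 163 FPKM with Vehicle and 11.2, 25.6 and 125 FPKM with GA, with a log2 fold change of -0.56 (SE 0.64). The value of Krt1 was -0.095 without the gland libraries, -0.18 without Vehicle 3, -0.28 without GA 6, -0.89 without Vehicle 4 and -0.98 without GA 4. Krt24, a type I keratin of differentiating keratinocytes, had 58.1, 63.8 and 445 FPKM with Vehicle and 15.3, 116 and 177 FPKM with GA. Here 5 of 6 GA libraries lay above the Vehicle median, while Vehicle 1 and GA 6 held the extremes, and the log2 fold change was -0.03 (SE 0.63). Krt79 and Krt9 reached at most 8.81 and 0.262 FPKM. Krt23 and Krt80, keratins of several epithelia that were in no list, ranged from 35.9 to 168 and from 45.7 to 218 FPKM. Krt23 had medians of 74.6 FPKM with Vehicle and 114 FPKM with GA, and Krt80 of 56.7 and 82.5 FPKM. The log2 fold changes were 0.36 (SE 0.47) for Krt23 and 0.08 (SE 0.35) for Krt80.

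Papilla and hair-type keratins varied between libraries more than the other keratin types. The SD within groups of their log2 level had a median percentile of 99.3 among all tested genes, against 97.9 for the simple, 93.8 for all and 73.8 for the stress keratins. Krt36, a type I keratin of filiform papillae and nail, had 72.8, 290 and 1227 FPKM with Vehicle and 34.2, 464 and 921 FPKM with GA. Krt84, a type II keratin of the same structures, had 61.4, 177 and 811 FPKM with Vehicle and 26.5, 315 and 505 FPKM with GA. Both had their highest level in Vehicle 1 and their lowest in GA 6, and their log2 fold changes were 0.20 (SE 0.87) and 0.18 (SE 0.79).

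The hard keratins of the hair shaft lay lower, but in some libraries they were abundant. Apart from Krt39, the type I genes given here stand in a row on chromosome 11, from Krt33a at 100011195 to Krt36 at 100105626. Krt31, a keratin of the hair cortex, had 0.172, 14.7 and 54.7 FPKM with Vehicle and 0.344, 50.1 and 153 FPKM with GA. Krt34 had 0.729, 20.9 and 79.0 FPKM with Vehicle and 0.241, 57.3 and 173 FPKM with GA. These levels ran from near absence to those of a well expressed gene: Krt34 had 10 reads in GA 6 and 6377 in GA 4. Krt33b had 0.387, 5.21 and 41.3 FPKM with Vehicle and 0.123, 21.6 and 80.1 FPKM with GA, and its neighbour Krt33a had 0.437, 1.32 and 12.8 against 0.0750, 9.68 and 29.9 FPKM. Krt35, which comes on early in the hair matrix, had 0.564, 8.996 and 15.2 FPKM with Vehicle and 0.355, 22.1 and 47.9 FPKM with GA. Krt32 and Krt39 are keratins of the hair cuticle. Krt32 had 4.73, 9.93 and 17.3 FPKM with Vehicle and 3.29, 15.1 and 16.8 FPKM with GA, and Krt39 had 0.277, 2.9 and 8.604 against 0.107, 7.18 and 24.9 FPKM.

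The type II hair keratins stand together on chromosome 15, from Krt87 at 101431038 to Krt84 at 101532820, and had a like spread. Krt85, which pairs with Krt35 in the hair matrix, had 1.53, 32.3 and 96.7 FPKM with Vehicle and 0.955, 92.8 and 248 FPKM with GA. Krt87 had 1.54, 56.7 and 112 FPKM with Vehicle and 1.85, 85.7 and 236 FPKM with GA. Krt81, a hair cortex keratin, had 0.723, 25.3 and 72.4 FPKM with Vehicle and 0.858, 57.4 and 157 FPKM with GA. Krt83 and Krt86 are its close relatives. Krt86 had 0.0920, 9.59 and 52.4 FPKM with Vehicle and 0.316, 41.0 and 135 FPKM with GA, and Krt83 had 1.35, 21.3 and 42.5 against 0.778, 29.9 and 80.3 FPKM. Shared windows made up 43.3% of Krt86, 37.7% of Krt81, 36.9% of Krt87, 33.1% of Krt34 and 28.1% of Krt31, so reads of these relatives cannot be fully told apart.

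The low values fell in the same libraries. Vehicle 3, Vehicle 5, GA 2 and GA 6 were the lowest 4 of the 12 in 14 of the 18 tested papilla and hair-type keratins. They were also the lowest 4 for Krt15, Krt4 and Krt76, which made 17 of 43 keratins, against 1.88% of all tested genes. These libraries were singled out after the values were seen, and the count is given as a description. In Krt85 the 4 libraries had 2.87, 1.53, 6.30 and 0.955 FPKM, and the next lowest, Vehicle 6, had 18.7 FPKM. Krtap genes, whose products fill the space between hair keratin filaments, had a summed level of 82.0, 42.0, 95.4 and 30.8 FPKM in these 4 libraries and 290 to 3682 FPKM in the other 8. Of these 4 libraries, 3 were those with gland RNA, and GA 6 had 0 FPKM of Lipf. Hoxc13, a homeobox factor of hair and papilla keratin genes, had 2.43, 1.92, 2.52 and 1.35 FPKM in the 4 libraries. Vehicle 6 was near them at 2.47 FPKM. Other regulators of keratin genes did not all follow. Lef1 was also lowest in GA 6 (0.140 FPKM), but Trp63, Sox2 and Tfap2c were highest there. Foxn1 had 10.98 FPKM in GA 6 and 7.05 FPKM in Vehicle 6. Tchh (trichohyalin), which crosslinks keratin in papillae and root sheath, had 14.6 FPKM in GA 6 and 1870 FPKM in Vehicle 1, but its values in the gland libraries (161 to 242 FPKM) lay among the others. Which region of the tongue each library came from is not given in the sources used here, and its part was not tested.

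**Figure D4:**
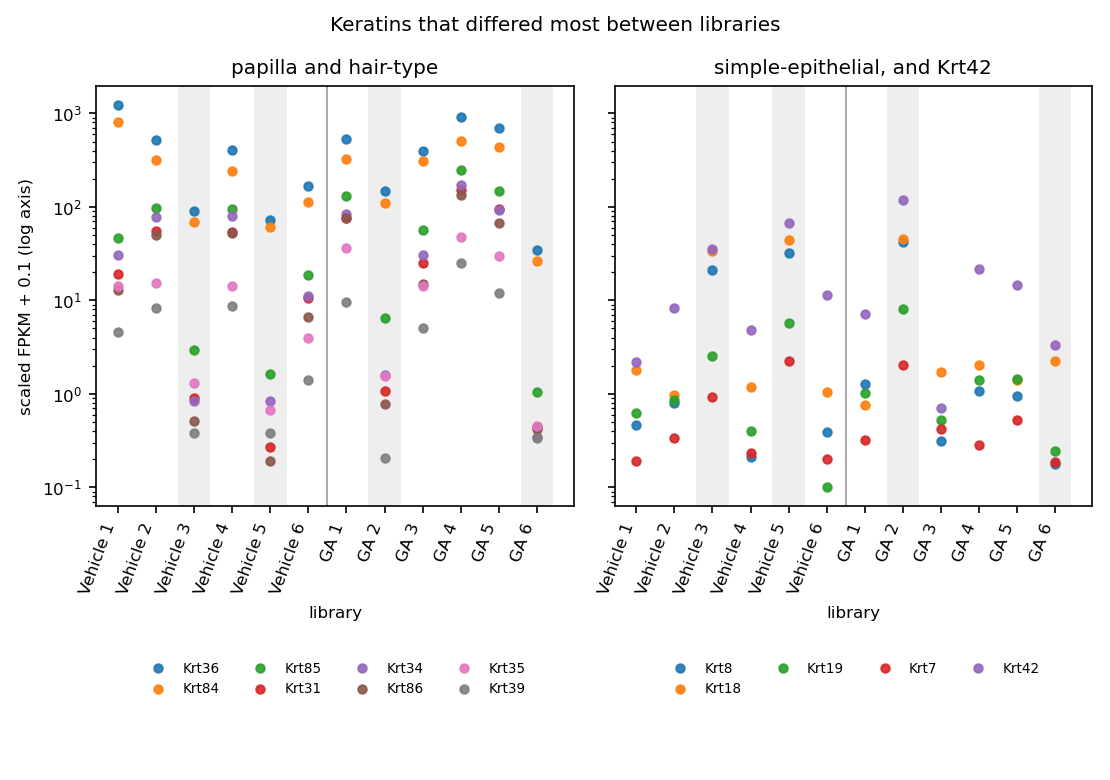
Scaled FPKM + 0.1 on a log axis by library for 8 papilla and hair-type keratins (left) and for 4 simple-epithelial keratins with Krt42 (right), with Vehicle 3, Vehicle 5, GA 2 and GA 6 shaded. The papilla and hair-type points are low in the 4 shaded libraries, and the simple-epithelial points are high in the 3 of them that contained gland RNA.

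Against this spread GA and Vehicle could not be told apart. Of the 18 tested members 15 had a higher GA mean, the median log2 fold change was 0.55 and 0 were called. The log2 fold changes of the hair keratins ran up to 1.21 for Krt86 (SE 1.80, -2.68 to 5.11) and 1.08 for Krt31 (SE 1.75, -2.71 to 4.87), and the smallest unadjusted p in the list was 0.460. The direction did not hold in all fits. Without the 3 gland libraries, of which Vehicle had 2 and GA 1, 4 members were higher and 14 lower with GA, and the median was -0.21. Leaving out GA 4 alone gave 7 higher and 11 lower, with a median of -0.04. Leaving out GA 1, GA 5, Vehicle 3 or Vehicle 5 in turn gave medians of 0.07, 0.08, 0.04 and 0.07, leaving out GA 2, GA 6, Vehicle 2 or Vehicle 4 gave 1.15, 1.34, 1.06 and 1.07, and the sex term gave 1.72.

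Members of the list that belong to other parts of the hair follicle were low. Krt75, of the companion layer, stayed at or below 4.47 FPKM and Krt90 at or below 8.17 FPKM. Krt73, of the inner root sheath, had 6.58 FPKM in Vehicle 1 and at most 1.43 FPKM elsewhere. In this list the tested shaft keratins were higher in 8 libraries, and the root sheath keratins were near 0 in nearly all. Levels near 0 were not confined to root sheath keratins, since Krt40 and Krt82 of the same list reached at most 0.143 and 0.133 FPKM.

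Krt42, a type I gene of the papilla and hair list, followed the simple keratins. It had 2.06, 9.71 and 67.1 FPKM with Vehicle and 0.614, 10.9 and 119 FPKM with GA, for a log2 fold change of -0.31 (SE 1.13). Its 3 highest values, 35.8, 67.1 and 119 FPKM, were those of Vehicle 3, Vehicle 5 and GA 2.

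Simple-epithelial keratins were high in the libraries with gland RNA and low elsewhere. Krt8, Krt18, Krt19 and Krt7 had their highest 3 values in Vehicle 3, Vehicle 5 and GA 2, as did 2.82% of the genes that averaged 0.1 FPKM or more in the other 9 libraries. Krt20 did so too, but it averaged 0.0705 FPKM in the other 9 and passed the filter on low values only through these 3 libraries. Krt8 had 20.99, 32.2 and 42.2 FPKM there and between 0.0791 and 1.17 FPKM in the other 9 libraries. Krt18, its type I partner, had 34.0, 43.6 and 45.8 FPKM there and between 0.652 and 2.17 FPKM elsewhere. The summed level of 13 gland genes was 25394, 10209 and 30010 FPKM in these 3 libraries and at most 4.23 FPKM in the others, where between 6 and 10 of the genes were listed at 0. The part of gland cells in the keratin levels was not tested. Krt19 and Krt7, keratins of ducts and transitional epithelium, reached 7.89 and 2.15 FPKM, and Krt20, of gut and urothelium, reached 0.994 FPKM.

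By group, Krt8 had a lowest, median and highest level of 0.111, 0.527 and 32.2 FPKM with Vehicle and 0.0791, 0.915 and 42.2 FPKM with GA. For Krt18 the values were 0.873, 1.4 and 43.6 FPKM with Vehicle and 0.652, 1.76 and 45.8 FPKM with GA. Krt19 had 0, 0.645 and 5.62 FPKM with Vehicle and 0.146, 1.11 and 7.89 FPKM with GA. The groups overlapped over most of these ranges, and the highest value of each gene was in GA 2. Krt7 had 0.0918, 0.186 and 2.15 FPKM with Vehicle and 0.0871, 0.273 and 1.95 FPKM with GA, and Krt20 had 0, 0.127 and 0.515 against 0, 0.0751 and 0.994 FPKM. The log2 fold changes were -0.45 (SE 1.53) for Krt8, -0.52 (SE 1.21) for Krt18, 0.46 (SE 0.97) for Krt19, 0.05 (SE 0.70) for Krt7 and -0.21 (SE 0.60) for Krt20. Without the gland libraries those of Krt8 and Krt18 were 0.51 and 0.32. In the 9 other libraries Krt8 rested on 4 to 49 reads and Krt18 on 20 to 80 reads, and 26.9% of Krt8 windows also occur in the pseudogene Krt8-ps.

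Type II and type I partners were compared over the 12 libraries on the log2 scale, as 6 pairs with permutation tests of 100000 resamples and Benjamini-Hochberg adjustment over the pairs. Krt6a and Krt16 had a Pearson r of 0.98 (adjusted permutation p = 6e-05, Spearman rho 0.90 with adjusted p = 0.00114), and r was 0.95 without the 2 libraries farthest from the median. Krt5 and Krt14 had r = 0.86 (adjusted permutation p = 0.00057, rho 0.87 with adjusted p = 0.00147, 0.86 without the farthest 2). Krt4 and Krt13 had r = 0.85 (adjusted permutation p = 0.0009, rho 0.85 with adjusted p = 0.00166, 0.81 without the farthest 2). Within groups of 6 libraries, without a test, r of these 3 pairs was 0.99, 0.79 and 0.84 in Vehicle and 0.98, 0.90 and 0.99 in GA. Without the gland libraries the 3 values of r were 0.98, 0.93 and 0.76. Keratins that are not partners were not tested in this way, so these values are not shown to be particular to partners.

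Other pairs did not track each other as closely. Krt6b and Krt17 had r = 0.83 (adjusted permutation p = 0.00223, rho 0.80 with adjusted p = 0.0035), but r was 0.51 without GA 1 and GA 5, the farthest 2, and was 0.23 in Vehicle and 0.97 in GA, so that the relation rested on those libraries. Krt1 and Krt10 had r = 0.46 (adjusted permutation p = 0.161, rho 0.43 with adjusted p = 0.202, 0.46 without the farthest 2). Krt8 and Krt18 fell into separate clusters of libraries, and in the 9 without gland RNA r was -0.40 (exact permutation test, adjusted p = 0.281, rho -0.38 with adjusted p = 0.312). The low reads of both genes limit that value.

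**Figure D5:**
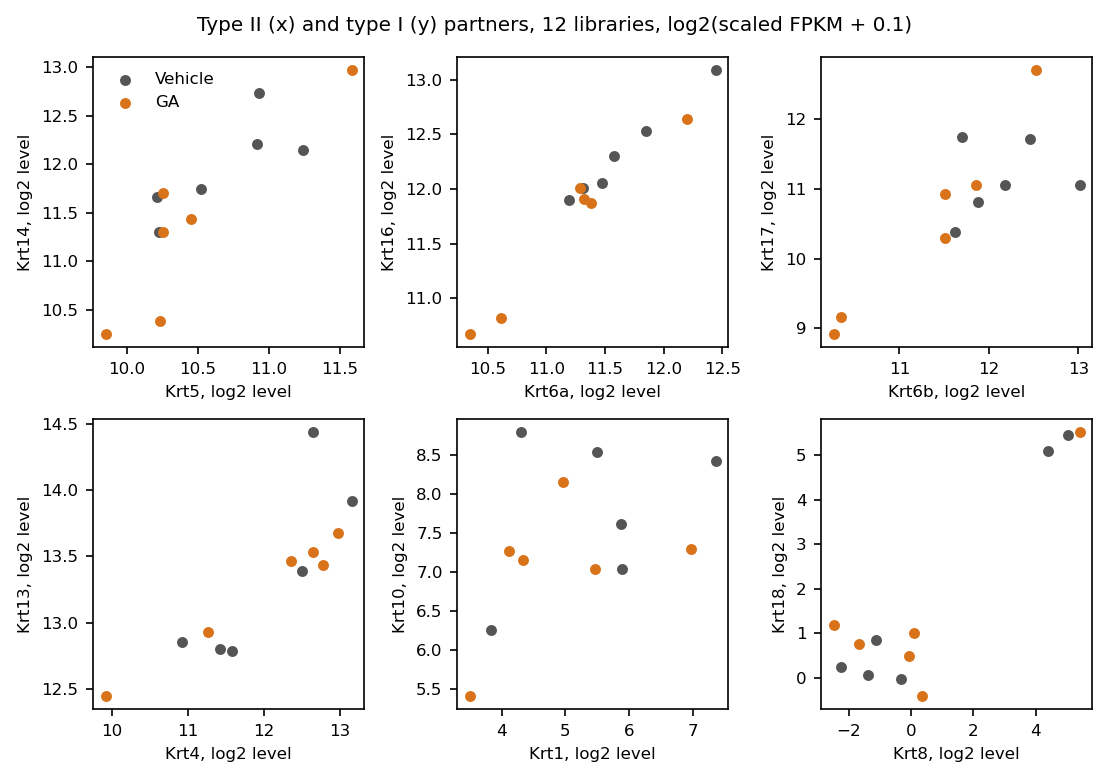
Log2(scaled FPKM + 0.1) of a type II keratin (x axis) against its type I partner (y axis) in 6 Vehicle (grey) and 6 GA (orange) libraries, for 6 pairs. Krt6a and Krt16 lie close to a line (r = 0.98), whereas Krt8 and Krt18 split into 3 high libraries and a loose group of 9.

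The genes most like 4 leading keratins were sought among 4226 non-keratin genes that averaged 10 FPKM or more, by Pearson r of the log2 level over the 12 libraries. The values are descriptions, since the libraries share tissue composition. The 3 closest to Krt6a were Gjb6 (r = 0.97), a connexin of stratified epithelium, Tubb2a (0.96), a tubulin, and Tmem183a (0.95). Those of Krt14 were Mapk6, an atypical MAP kinase (0.97), Serinc2 (0.97) and the tubulin Tuba1c (0.97). Those of Krt13 were Them5 (0.95), Pycard (0.95), an inflammasome adaptor, and Eps8l2 (0.95). Krt8 was matched by Srpra (0.98), a receptor for secretory protein targeting, and by the salivary genes Amy1 (0.96) and Bpifa2 (0.95). Outside Vehicle 3, Vehicle 5 and GA 2, Amy1 and Bpifa2 reached at most 3.51 and 0.434 FPKM. These 2 genes entered the search only through those libraries, where Krt8 was also high, so their r is not separate from that filter.

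Genes that work with keratins were not called different between groups either, where the background over all 16847 tested genes was also 0%. Among filament partners, which anchor or bundle keratin, 0 of 11 tested were called, with 3 higher and 8 lower means with GA (median log2 fold change -0.34). Dsp (desmoplakin), which ties keratin to desmosomes, averaged 501 FPKM with Vehicle and 393 FPKM with GA (log2 fold change -0.34, SE 0.25), and Pkp1 (plakophilin) averaged 585 and 471 FPKM (-0.30, SE 0.23). The cornified papilla proteins Rptn and Tchh averaged 866 and 490 FPKM with Vehicle against 489 and 239 FPKM with GA, with the Vehicle means set by Vehicle 1 (2685 and 1870 FPKM). Flg, filaggrin, ranged from 1.07 FPKM in GA 6 to 127 FPKM in Vehicle 1. Among 12 keratin regulators 0 were called, with 4 higher and 8 lower (median -0.11). Trp63, the master factor of stratified epithelium, averaged 42.6 and 38.2 FPKM, Klf4, a factor of differentiation, 270 and 228 FPKM, and Sox2, of basal oral cells, 20.7 and 20.8 FPKM.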

How the data were processed

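RNA-seq was made from tongue tissue of 6 Vehicle and 6 GA libraries with a SMARTER mRNA kit. The deposited FPKM values were made by the authors with HISAT2 alignment (mm10) and gene-level featureCounts of reads that mapped uniquely. Neither tool's version, the annotation nor the strand setting is given in the sources used here. Unnamed rows (41.4%) were not used. Library totals were recovered with GENCODE M21 exon lengths less a library-specific offset, with 97.8% to 98.3% of low values within 0.02 of a whole read. Scaling used trimmed means of M values (30% of ratios and 5% of levels trimmed). Since FPKM are not counts, limma 3.58.1 (R 4.3.3) with a trended prior was fitted on log2(FPKM + 0.1), where the pseudocount understates changes of low genes. Genes averaging 0.1 FPKM or more entered, and p-values were adjusted over all 16847. The fit was run on simulated data in which genes varied independently. The keratins here moved together across libraries, so that run does not show how the fit performs on them.

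Named keratins were those of the simple, basal, stress and mucosal lists and others averaging 5 FPKM or more (36 genes). Members and lists were chosen with earlier results of these data known. Alternatives covered the pseudocount, filter, scaling, trend, replicate block, sex and muscle terms, and left-out libraries. The list also named Krt74, not analysed here. Python 3.11.15 was used for levels, permutation tests and correlations.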

Additional observations from a re-analysis of the deposited data

Results flagged for a closer look

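Within the groups of 6 libraries, a library was flagged where its gap to the next value, over the range of its group on the log2 scale, passed Dixon's 95% limit. Of 72 groups of values, 7 were flagged (9.72%). The nominal rate is about 1 in 20 for independent groups. These groups were not independent, because keratins moved together across libraries, so the 2 rates cannot be compared directly. GA 6 stood apart in 3 keratins. It was highest in Krt5 (gap ratio 0.653), with 3070 FPKM against 1401 FPKM for the next, GA 3. It was lowest in Krt76 (0.626), with 6.89 against 162 FPKM, and lowest in Krt24 (0.728), with 15.3 against 91.0 FPKM. Vehicle 1 was highest in Krt24 (0.804), with 445 FPKM against 86.6 FPKM for the next. GA 2, the GA library with gland RNA, was highest in Krt18 (0.732), with 45.8 against 2.17 FPKM, in Krt8 (0.642), with 42.2 against 1.17 FPKM, and in Krt20 (0.633), with 0.994 against 0.141 FPKM. The Vehicle group held 2 gland libraries, and 2 high values mask each other under this rule. The lack of a flag there for these genes is therefore no difference between the groups. Krt20 passed the filter on low values only through the gland libraries, so its flag is not separate from that filter.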

How the results depend on the processing

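Under each of 23 alternative fits 0 keratins were called, and over all genes 0 to 1 were called (1 without Vehicle 4). At an unadjusted p below 0.1 with the fold change limit 1 keratin and 328 genes were found, and 364 genes had an unadjusted p below 0.05. Of 825 alternative fits of the 36 named keratins, 748 kept their direction and 77 changed it, with 0 called. In 12 keratins, the 4 stress keratins among them, no fit changed direction. The sex term gave log2 fold changes of 0.13 for Krt4, 0.49 for Krt76, 0.31 for Krt24 and -0.35 for Krt7, and moved the median of the basal list to -0.56. Krt7 was -0.024 with a pseudocount of 1 and -0.062 with the muscle term. Without the libraries with high Lipf the values were -0.43 for Krt36, -0.36 for Krt84, -0.046 for Krt80, -0.36 for Krt87, -0.12 for Krt85, -0.50 for Krt34, -0.32 for Krt81, -0.090 for Krt31, -0.032 for Krt86, -0.50 for Krt83, 0.0047 for Krt42, -0.30 for Krt33b, 0.32 for Krt18, -0.042 for Krt32 and 0.51 for Krt8. Leaving out each library in turn changed the direction of these keratins, with ranges of -0.23 to 0.10 for Krt13, -0.27 to 0.36 for Krt4, -0.67 to 0.78 for Krt76, -0.16 to 0.83 for Krt36, -0.12 to 0.77 for Krt84, -0.23 to 0.47 for Krt24, -0.42 to 0.060 for Krt78, -0.052 to 0.40 for Krt80, -0.080 to 1.78 for Krt34, -0.052 to 1.60 for Krt81, -0.25 to 1.16 for Krt83, -1.04 to 0.44 for Krt42, -0.14 to 1.56 for Krt33b, -1.34 to 0.18 for Krt18, -0.11 to 0.38 for Krt32, -1.48 to 0.40 for Krt8, -0.10 to 1.39 for Krt33a, -0.15 to 1.02 for Krt19, -0.39 to 0.53 for Krt7 and -0.68 to 0.049 for Krt20. The direction held for the others, with ranges of -1.05 to -0.59 for Krt6b, -0.86 to -0.46 for Krt16, -0.65 to -0.28 for Krt6a, -1.06 to -0.30 for Krt17, -0.95 to -0.41 for Krt14, -0.47 to -0.12 for Krt5, 0.028 to 0.71 for Krt15, -1.03 to -0.40 for Krt10, -0.98 to -0.18 for Krt1, 0.16 to 0.59 for Krt23, 0.052 to 1.65 for Krt87, 0.23 to 1.94 for Krt85, 0.13 to 2.10 for Krt31, 0.26 to 2.19 for Krt86, 0.37 to 1.80 for Krt35 and 0.057 to 1.44 for Krt39. The list medians ranged from -0.68 to 0.40 (simple), -0.47 to -0.12 (basal), -0.95 to -0.38 (stress), -0.33 to 0.09 (mucosal), -0.79 to -0.26 (epidermal), -0.04 to 1.34 (papilla and hair) and -0.18 to 0.01 (other). The pair correlations ranged from 0.81 to 0.89 (Krt5 and Krt14), 0.82 to 0.95 (Krt4 and Krt13), -0.65 to -0.15 (Krt8 and Krt18), 0.26 to 0.64 (Krt1 and Krt10, past the threshold only without Vehicle 1), 0.96 to 0.98 (Krt6a and Krt16) and 0.75 to 0.92 (Krt6b and Krt17). The cause of these changes was not tested. With the replicate number as a block 0 keratins and 0 genes were called. Deviations of same-numbered libraries correlated at -0.37 to 0.08, so the numbers were not taken as pairs. Depth limits the simple keratins outside the gland libraries and the hair keratins where they were low.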
